A study of Mus musculus with 12 samples.

Results

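Messenger RNA of 9 genes of MHC class I antigen presentation was followed in CD11b dendritic cells (DCs), which take up, process and present antigen to T cells and bear CD11b, an integrin subunit, at the surface. The genes were chosen by symbol: H2-K1, H2-D1, H2-T23, B2m, Tap1, Tap2, Tapbp, Erap1 and Nlrc5. They are 9 of the 24391 rows of the deposited count table, and all 9 were among the 13221 genes with enough counts to test. The cells came from wild-type C57BL/6J mice of 8 to 12 weeks that had received a replication-deficient adenovirus by way of the trachea. The vector was either empty (AdCL, the control) or carried the pig gene for active TGF-β1 (AdTGFb1). Both arms thus had adenovirus, and no mice without virus are included. Experiment 1 holds AdCL DC 7, 8 and 9 and AdTGFb1 DC 14, 52 and 54, and experiment 3 holds AdCL DC 943, 944 and 949 and AdTGFb1 DC 954, 955 and 956. The series title places the study in established pulmonary fibrosis, while the labels used here name no organ, sort gate or time after the vector and do not say whether each library is a separate animal. P-values thus weigh an effect against library-to-library spread alone, which may in part be technical.

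MHC class I molecules show peptides from inside the cell to CD8 T cells. Each consists of a heavy chain, such as the products of H2-K1 and H2-D1, and the light chain beta-2-microglobulin, the product of B2m. Peptides made by the proteasome enter the endoplasmic reticulum through the transporter formed by Tap1 and Tap2, the aminopeptidase Erap1 trims them there, and tapasin, the product of Tapbp, holds the empty heavy chain at the transporter while peptides are exchanged. Nlrc5 is the transactivator of this gene set. It has no DNA-binding domain of its own and acts with factors of the RFX, CREB and NF-Y families on a conserved module in class I promoters, and interferons raise most of these genes in part through IRF factors. DCs depend on the pathway to prime CD8 T cells, including with antigen taken up from outside the cell.

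Promoters of 7 of the 9 genes were found in the RefSeq table (GRCm38.p6); Tap2 and Nlrc5 were not matched. The 200 bases before the annotated start are shown for 5 genes: the 2 classical heavy chains, the light chain, a transporter subunit and the trimming enzyme. Capitals mark matches to the motifs searched on both strands: TGACG (core of the cyclic AMP response element), CCAAT (the NF-Y box, ATTGG on the other strand), AANNGAAA (core of an IRF site), TTCNNNGAA (GAS, the interferon gamma-activated site) and the NF-kB consensus. Windows are at chr17:34000348-34000547 on the minus strand for H2-K1, chr17:35262894-35263093 on the plus strand for H2-D1, chr2:122147487-122147686 on the plus strand for B2m, chr17:34187356-34187555 on the plus strand for Tap1 and chr13:74639653-74639852 on the plus strand for Erap1. Each is written 5′ to 3′ on the strand of its gene.
H2-K1: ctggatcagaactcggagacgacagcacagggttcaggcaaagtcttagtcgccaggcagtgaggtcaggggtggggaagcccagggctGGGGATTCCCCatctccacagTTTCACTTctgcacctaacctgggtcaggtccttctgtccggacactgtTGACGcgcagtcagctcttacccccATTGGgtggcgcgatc
H2-D1: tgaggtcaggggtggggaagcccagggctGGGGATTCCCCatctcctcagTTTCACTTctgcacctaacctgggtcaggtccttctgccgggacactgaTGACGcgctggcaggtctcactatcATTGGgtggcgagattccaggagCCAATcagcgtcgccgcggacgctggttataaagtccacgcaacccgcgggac
B2m: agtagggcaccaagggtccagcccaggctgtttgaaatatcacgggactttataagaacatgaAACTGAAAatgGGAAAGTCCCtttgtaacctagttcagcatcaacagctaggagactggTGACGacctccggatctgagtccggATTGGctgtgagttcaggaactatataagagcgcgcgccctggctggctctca
Tap1: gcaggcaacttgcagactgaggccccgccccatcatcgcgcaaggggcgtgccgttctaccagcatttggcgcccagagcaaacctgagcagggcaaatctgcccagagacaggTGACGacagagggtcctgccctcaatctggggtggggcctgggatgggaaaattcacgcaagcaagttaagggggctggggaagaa
Erap1: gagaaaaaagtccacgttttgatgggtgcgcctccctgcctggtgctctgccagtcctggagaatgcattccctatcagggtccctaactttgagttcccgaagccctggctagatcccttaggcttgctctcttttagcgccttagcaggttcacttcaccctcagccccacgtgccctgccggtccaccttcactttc

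The windows of H2-K1 and H2-D1 were near copies: shifted by 60 bases, 127 of their 140 shared bases (90.7%) were identical. Windows were compared only as written on the strand of each gene, and the next pair reached 42.9% (Tap1 and its divergent neighbour Psmb9). The Tap1 and Psmb9 windows overlap in the genome on opposite strands, so this value does not measure how much sequence they share. H2-K1, H2-D1 and B2m each held TGACG, an IRF core, an NF-kB match and CCAAT. In the windows of H2-K1 and H2-D1 the degenerate NF-kB consensus matched on both strands, and the overlapping matches are capitalised as 1 run. Tap1 held TGACG alone, Erap1 none of the motifs, Tapbp (chr17:33919278-33919477) CCAAT alone, and H2-T23 (chr17:36032702-36032901) CCAAT and 2 IRF cores. No GAS match lay in any of the 7 windows. Over 32851 RefSeq windows of the same length, 15.7% held TGACG, 29.3% CCAAT, 17% the IRF core, 5.49% GAS and 6.07% the NF-kB consensus. These matches are descriptions of the letters in a window and say nothing of binding in these cells.

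Before the results, 3 features of the libraries matter for these genes. Total counts ran from 10099912 to 15594546. Xist and Y-linked Ddx3y showed 4 male libraries (AdCL DC 7, 8 and 9 and AdTGFb1 DC 14), all in experiment 1, and 8 female ones. Sex thus nearly followed the vector in experiment 1, and a term for sex cannot be told apart well from the vector there. All 10 fixed CD11b DC markers were detected in every group, with sums of 7925 to 14110 in CPM (read counts scaled to library depth with TMM-adjusted library sizes), but their levels moved with the vector: 5 of the 10 were called lower with AdTGFb1 and 1 higher over both experiments, with a median log2 fold change of -0.44. The 5 include Flt3 (-1.30), Zbtb46 (-1.63), Irf4 (-1.36) and Cd209a (-1.98). Over both experiments 17.2% of all genes tested were called, 6.78% being higher. Markers of other cells moved as well. Of the macrophage markers, 7 of 10 were called higher with AdTGFb1 over both experiments, with sums of 1627 to 1760 CPM in AdCL and 3298 to 3938 CPM in AdTGFb1 of experiment 1 and of 2864 to 3647 and 5083 to 5900 CPM in experiment 3. Endothelial markers summed to 239.6 to 735.7 CPM in AdCL of experiment 1 and to between 82.99 and 191 CPM in the other groups. In experiment 1, 8 of 10 were called lower with AdTGFb1, as were 14.1% of all genes. So were 3 of 6 fibroblast and 4 of 8 epithelial markers tested there. Of the epithelial markers 1 was called higher, as were 1397 of the 13221 genes. Fibroblast sums were 89.15 to 203.7 CPM in AdCL and 21.72 to 70.07 CPM in AdTGFb1 of experiment 1, while epithelial sums overlapped. No macrophage or endothelial marker of these lists was at 0 throughout a group. The part of the markers of these other cells in the results below was not tested beyond a fit with a term for the endothelial markers. In experiment 1 the endothelial sums did not overlap between the vectors, so that term cannot be told apart well from the vector there.

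With AdTGFb1, 3 of the 4 genes that transport, trim and load peptide were called higher, and neither classical heavy chain was called. Tap1, Erap1 and Tapbp were the genes called over both experiments (edgeR's quasi-likelihood test with the experiment as a term, adjusted p under 0.05), all 3 higher. Tap2 (0.39) and H2-T23 (0.40) had log2 fold changes like that of Tapbp (0.39) but missed the threshold (adjusted p = 0.0818 and 0.0873). Of all genes tested, 17.2% were called in this comparison, 6.78% being higher. The median log2 fold change of the 9 was 0.39, against 0.00 over all genes (-0.001956), and 7 of the 9 were above 0. H2-K1 and H2-D1 were the 2 below 0. In bulk RNA, fewer cells of a type and less RNA per cell cannot be told apart.

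Tap1, the first subunit of the peptide transporter, was at 98.7, 96.9 and 106.9 CPM in AdCL and at 200, 130.5 and 162.0 CPM in AdTGFb1 of experiment 1. In experiment 3 it was at 157.9, 108.8 and 172.0 CPM in AdCL and at 292.6, 167.9 and 198.3 CPM in AdTGFb1. The 2 vectors separated fully in experiment 1, while in experiment 3 AdTGFb1 DC 955 fell below AdCL DC 949. Over both experiments the log2 fold change was 0.64 ± 0.15 (SE, adjusted p = 0.0061, 1.56-fold). It was 0.70 ± 0.20 in experiment 1 (adjusted p = 0.0136) and 0.59 ± 0.20 in experiment 3 (adjusted p = 0.0907), where it alone of the 9 had an unadjusted p under 0.05 (0.00795). The call in experiment 1 was lost without AdTGFb1 DC 14 (0.54, adjusted p = 0.0824) and with a term for endothelial markers (-0.15), and without AdTGFb1 DC 955 the change in experiment 3 was called (0.75). Exons of Tap1 share 212 bases with Psmb9 on the opposite strand (GENCODE M21). How reads there were counted depends on the strand setting, which is not given.

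Tap2, the partner subunit, was at 57.2, 87.4 and 85.6 CPM in AdCL and 103.5, 78.5 and 115.3 CPM in AdTGFb1 of experiment 1. It was at 112.9, 71.8 and 94.7 CPM in AdCL and 141.2, 116.3 and 113.1 CPM in AdTGFb1 of experiment 3. Only in experiment 3 did every AdTGFb1 library lie above every AdCL library, by a small margin (113.1 over 112.9 CPM). The change over both experiments, a log2 fold change of 0.39 ± 0.15, missed the threshold (adjusted p = 0.0818). It passed without AdTGFb1 DC 52 (0.46) and without AdCL DC 943 (0.46). Tap2 exons overlap 2 noncoding genes on the opposite strand.

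Tapbp encodes tapasin. It was at 249.1, 234.1 and 212.2 CPM in AdCL and 325.9, 268.4 and 360.4 CPM in AdTGFb1 of experiment 1, and at 342.7, 228.2 and 256.1 CPM against 394.5, 341.8 and 296.5 CPM in experiment 3. AdCL DC 943 lay among the AdTGFb1 libraries of its experiment. The log2 fold change was 0.39 ± 0.12 over both experiments (adjusted p = 0.0346), 0.46 ± 0.16 in experiment 1 (adjusted p = 0.0426) and 0.32 ± 0.16 in experiment 3 (adjusted p = 0.301). This call was the least stable of the 3. It held in 12 of 21 alternatives, and was lost when sex (adjusted p = 0.0876) or endothelial markers (adjusted p = 0.12) entered the model, when the experiment was left out of it (adjusted p = 0.0717), and without any of AdCL DC 8, 9 or 944 or AdTGFb1 DC 14, 54 or 954 (adjusted p from 0.053 to 0.0947). In experiment 1 alone the call held in 13 of 20 alternatives, and DESeq2's size factors in edgeR sufficed to end it (adjusted p = 0.0505). Of the Tapbp exons, 682 bases overlap the antisense model Gm19412.

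Erap1, the aminopeptidase that trims peptides to the length class I takes, was at 47.7, 54.5 and 42.3 CPM in AdCL and 88.8, 87.7 and 81.6 CPM in AdTGFb1 of experiment 1. Values in experiment 3 were 84.7, 75.8 and 74.1 CPM in AdCL and 100, 106.5 and 80.9 CPM in AdTGFb1. The AdCL libraries of experiment 1 were the low group, and the other 9 libraries all exceeded 74 CPM. The log2 fold change was 0.56 ± 0.14 over both experiments (adjusted p = 0.00777, 1.48-fold), 0.84 ± 0.17 in experiment 1 (adjusted p = 0.00101, 1.79-fold) and 0.29 ± 0.17 in experiment 3 (adjusted p = 0.391). The difference between the 2 experiments' effects was -0.54 ± 0.24 and did not pass (unadjusted p = 0.035, adjusted p = 0.201). The call over both experiments held in 20 of 21 alternatives, the exception being the model that ignores the experiment (adjusted p = 0.0536). Erap1 exons share 834 bases with Cast on the opposite strand.

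**Figure D1:**
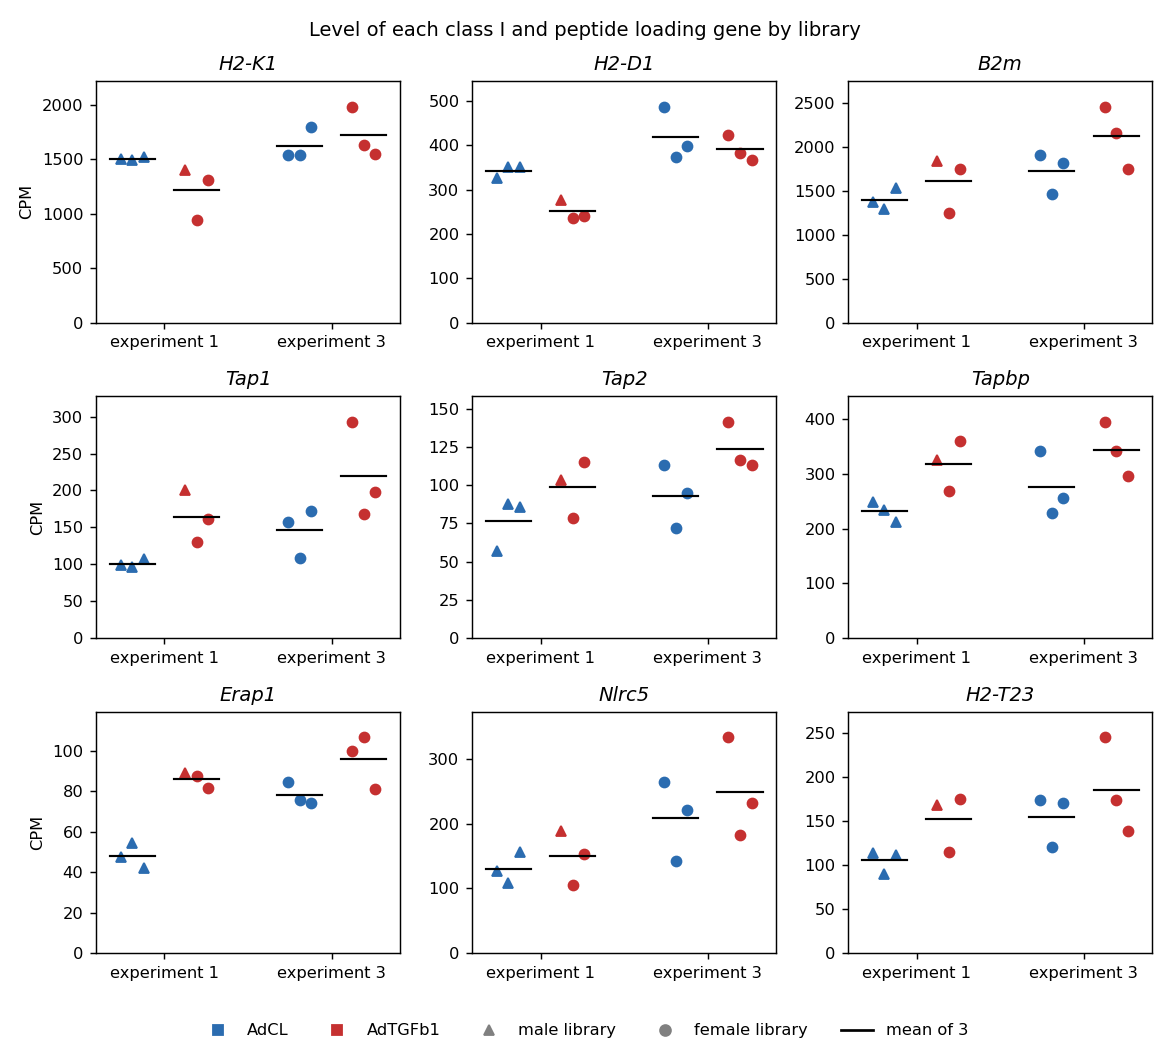
Level of each of the 9 genes in CPM (vertical axes, each starting at 0) in experiments 1 and 3, for AdCL (blue) and AdTGFb1 (red); symbols are single libraries, with triangles for males and circles for females, and the line is the mean of 3. The vectors do not overlap in experiment 1 for Tap1, Tapbp, Erap1 and H2-T23 (AdTGFb1 above) and for H2-K1 and H2-D1 (AdTGFb1 below), and in experiment 3 they do so for Tap2 alone.

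H2-K1, a classical heavy chain, was at 1505, 1492 and 1521 CPM in AdCL and 1403, 944 and 1313 CPM in AdTGFb1 of experiment 1. In experiment 3 it was at 1538, 1540 and 1798 CPM in AdCL and 1982, 1635 and 1550 CPM in AdTGFb1. All 3 AdTGFb1 libraries of experiment 1 were below its AdCL libraries, and DC 52 was lowest of all 12. In experiment 3 the vectors overlapped. The log2 fold change was -0.11 ± 0.12 over both experiments (adjusted p = 0.588), -0.30 ± 0.14 in experiment 1 (adjusted p = 0.127) and 0.08 ± 0.14 in experiment 3 (adjusted p = 0.838). With a term for sex the value over both experiments was 0.02, on the other side of 0.

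H2-D1, the other classical heavy chain, was at 325.8, 351.1 and 351.0 CPM in AdCL and 276.0, 235.1 and 241.3 CPM in AdTGFb1 of experiment 1, a mean of 342.6 ± 14.5 against 250.8 ± 22 CPM (SD, n = 3). In experiment 3 it was at 486.0, 374.1 and 397.6 CPM in AdCL and 423.3, 381.2 and 366.7 CPM in AdTGFb1. It was lower with AdTGFb1 in experiment 1 (log2 fold change -0.45 ± 0.14, adjusted p = 0.0176) and not called in experiment 3 (-0.10 ± 0.13, adjusted p = 0.769) or over both (-0.28 ± 0.11, adjusted p = 0.0897). The difference between the experiments' effects, 0.35 ± 0.19, did not pass (adjusted p = 0.316). With sex in the model the call in experiment 1 was lost (-0.31, adjusted p = 0.335). The AdCL libraries of experiment 1 were all male, so that term rests on AdTGFb1 DC 14 against DC 52 and 54. The call was also lost without any of AdCL DC 7, 8 or 9 or AdTGFb1 DC 52 or 54 (adjusted p from 0.0504 to 0.0804). In transcripts of H2-D1, 14.3% of 50-base words occur in another gene, and in those of H2-K1 8.79%, mostly in H2-D1. The labels do not say how reads of such copies were counted.

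B2m, the light chain that every class I heavy chain needs at the surface, was at 1378, 1302 and 1534 CPM in AdCL and 1844, 1254 and 1753 CPM in AdTGFb1 of experiment 1. Experiment 3 gave 1910, 1470 and 1819 CPM in AdCL and 2460, 2160 and 1758 CPM in AdTGFb1. AdTGFb1 DC 52 was again the lowest of the 12 and DC 954 the highest. The log2 fold change of 0.25 ± 0.12 over both experiments did not pass (adjusted p = 0.171).

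H2-T23 encodes the heavy chain of Qa-1, a nonclassical class I molecule that presents leader peptides of other class I heavy chains to the CD94/NKG2 receptors of NK cells. It was at 113.8, 90.7 and 112.2 CPM in AdCL and 168.3, 115.4 and 174.9 CPM in AdTGFb1 of experiment 1, where the vectors did not overlap. In experiment 3 they did, with 174.0, 120.6 and 170.6 CPM in AdCL and 245.5, 174.1 and 138.6 CPM in AdTGFb1. The log2 fold change was 0.40 ± 0.16 over both experiments (adjusted p = 0.0873) and 0.53 ± 0.20 in experiment 1 (adjusted p = 0.0589). It passed over both experiments without AdTGFb1 DC 956 (0.49). Of its 50-base words 28.8% occur elsewhere, the largest share in the pseudogene H2-T-ps (12.9%).

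Nlrc5, the transactivator, spread widely within groups, for instance by an SD of 62.5 around 209.3 CPM in AdCL of experiment 3. It was at 126.6, 108.7 and 156.3 CPM in AdCL and 188.8, 106.0 and 153.5 CPM in AdTGFb1 of experiment 1. Experiment 3 gave 265.1, 141.7 and 221.0 CPM in AdCL and 333.2, 183.1 and 231.4 CPM in AdTGFb1. The vectors overlapped in both experiments, and the log2 fold change of 0.22 ± 0.18 over both did not pass (adjusted p = 0.441).

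Within experiment 1, 4 of the 9 genes were called, against 24.7% of all genes. H2-D1 was the 1 called lower, as were 14.1% of all genes, and 3 were called higher, as were 1397 of the 13221. With a term for endothelial markers none of these 4 calls held, 0.0529% of all genes were called, and Tap1 (-0.15, adjusted p = 0.963) and Tapbp (-0.20, adjusted p = 0.921) turned in direction. Those markers moved with the vector in experiment 1, so this fit cannot decide whether the 4 changes go with the vector or with the markers. In experiment 3 none was called, and over all genes 6.43% were, 1.97% higher and 4.46% lower. None of the 9 was called for the difference between the experiments' effects (6.02% of all genes, 3.43% with a higher and 2.59% with a lower effect in experiment 3), and Erap1 was the 1 gene with an unadjusted p under 0.05. By plain separation of the libraries, 4 of the 9 had all AdTGFb1 libraries above AdCL in experiment 1 (18.8% of all genes) and 2 had them below (21.6%). In experiment 3 this was 1 above (11.5%) and 0 below (12.9%), and over all 12 libraries 0 above (1.86%) and 0 below (4.46%).  Without TMM factors, on library totals alone, the median log2 fold change of all genes moved to 0.17 and 6 of the 9 were called higher, with 18.9% of all genes called in either direction. That setting was added after the data were seen. H2-K1, at 0.06, was then on the other side of 0 but still below that median.

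**Figure D2:**
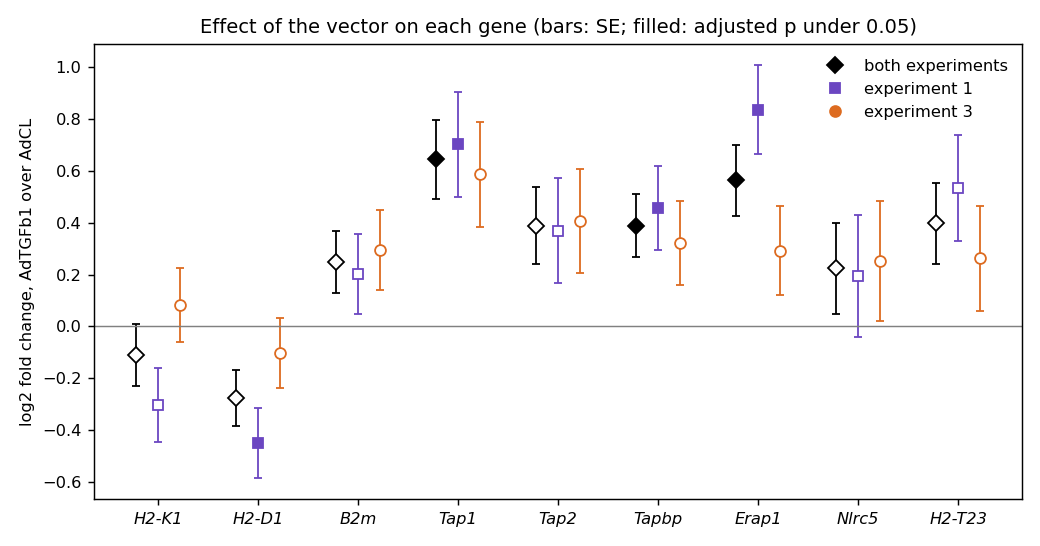
Effect of the vector on each gene as log2 fold change of AdTGFb1 over AdCL (vertical axis) with its SE, over both experiments (diamonds), in experiment 1 (squares) and in experiment 3 (circles); filled symbols have an adjusted p under 0.05. The filled symbols are Tap1, Tapbp and Erap1 above 0 over both experiments and in experiment 1, and H2-D1 below 0 in experiment 1.

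Ratios within a library do not depend on how libraries are scaled, so each gene was also set against H2-K1, its counts per 100 counts of H2-K1. In experiment 1 there were 91.6, 87.2 and 100.9 counts of B2m per 100 of H2-K1 in AdCL and 131.4, 132.8 and 133.5 in AdTGFb1. The 3 AdTGFb1 libraries lay close together and all above the control libraries. Tap1 gave 6.56, 6.50 and 7.03 counts per 100 of H2-K1 in AdCL and 14.3, 13.8 and 12.3 in AdTGFb1. Erap1 gave 3.17, 3.65 and 2.78 in AdCL and 6.33, 9.29 and 6.22 in AdTGFb1. The same separation held in experiment 1 for Tapbp (13.95 to 16.56 in AdCL, 23.22 to 28.43 in AdTGFb1), H2-T23 (6.08 to 7.56, 12.0 to 13.3), Nlrc5 (7.28 to 10.28, 11.2 to 13.5) and Tap2 (3.80 to 5.86, 7.37 to 8.78). It did not hold for H2-D1 (21.65 to 23.52, 18.38 to 24.90). Thus 7 of the 8 ratios to H2-K1 separated with AdTGFb1 above in experiment 1, against 26.4% of all genes, and none below, against 11.6%. The 7 share their denominator and are not independent. In CPM, H2-K1 itself was lower with AdTGFb1 in experiment 1 (944 to 1403, against 1492 to 1521 in AdCL), which raises every ratio. B2m, Tap2 and Nlrc5 overlapped between the vectors there in CPM and separated only as ratios.

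In experiment 3 B2m was at 124.2, 95.5 and 101.2 per 100 of H2-K1 in AdCL and 124.1, 132.1 and 113.4 in AdTGFb1. Tap1 was at 10.27, 7.07 and 9.56 in AdCL and 14.77, 10.27 and 12.80 in AdTGFb1, so the vectors met at 10.27, with AdTGFb1 DC 955 above AdCL DC 943 by less than the digits shown. Every ratio but that of Tap1 overlapped between the vectors, and 7.70% of all genes separated above and 12.9% below. The AdCL libraries of experiment 3 had higher mean ratios than those of experiment 1 for all 8 genes, for instance 4.85 ± 0.70 against 3.20 ± 0.44 for Erap1 and 12.9 ± 4.05 against 8.66 ± 1.51 for Nlrc5 (SD, n = 3). AdCL DC 943 had the highest ratio of its group for all of them. These ratios carry no test.

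**Figure D3:**
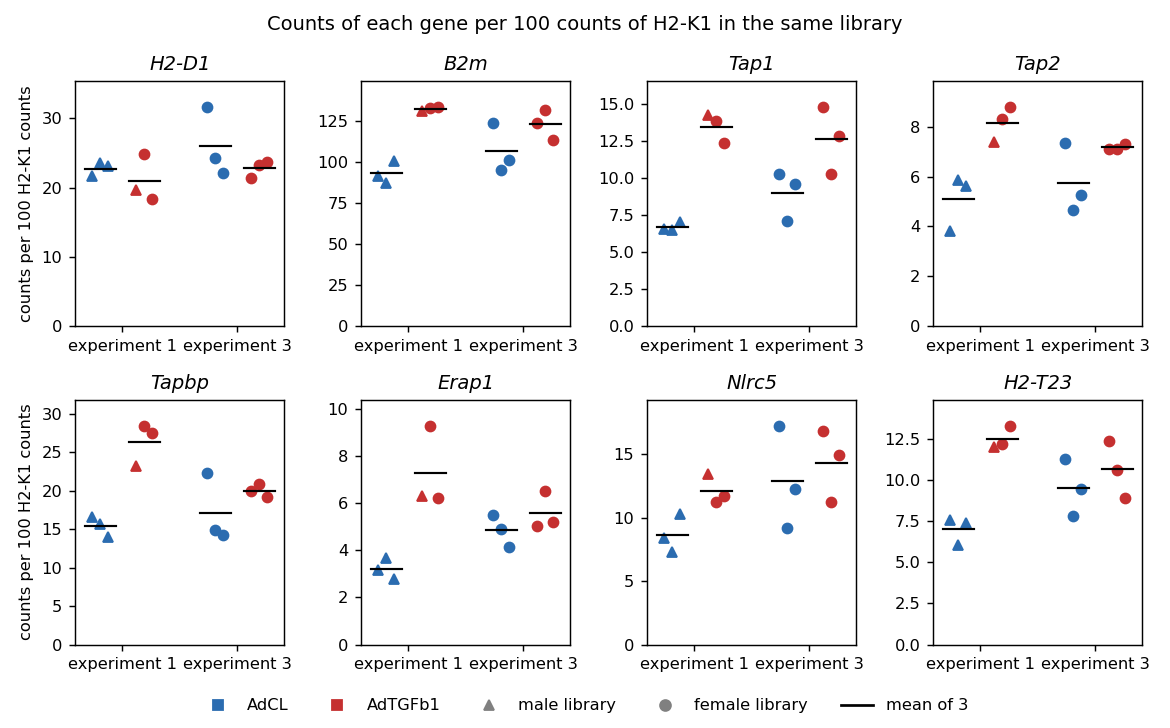
Counts of each of 8 genes per 100 counts of H2-K1 in the same library (vertical axes, each starting at 0) in experiments 1 and 3, for AdCL (blue) and AdTGFb1 (red); triangles mark males and circles females, and the line is the mean of 3. In experiment 1 the red symbols lie above the blue ones for every gene but H2-D1, and in experiment 3 the vectors overlap for all but Tap1, which meets at 10.27.

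The 2 experiments differed in these genes apart from the vector. All 9 had a positive log2 fold change for experiment 3 over experiment 1 with the vector as a term, with a median of 0.42, where 50.77% of all genes were positive and the median was 0.01. Nlrc5 was higher in experiment 3 by 0.71 ± 0.18 (adjusted p = 0.0214, 1.64-fold) and H2-D1 by 0.46 ± 0.11 (adjusted p = 0.0139, 1.38-fold). Over all genes 6.43% were called, 3.57% higher and 2.86% lower. The Nlrc5 call was lost without AdTGFb1 DC 954 (0.59, adjusted p = 0.0557), and the H2-D1 call held in all 20 alternatives (0.42 to 0.68). H2-K1 and H2-D1 separated the experiments fully, with every library of experiment 3 above every library of experiment 1 (1538 over 1521 and 366.7 over 351.1 CPM), as did 1.18% of all genes. Experiment 3 was all female and experiment 1 had 4 males among 6. The 2 female libraries of experiment 1, AdTGFb1 DC 52 and 54, were the lowest of all 12 for both heavy chains. With a term for sex the changes were 0.58 for H2-K1 (adjusted p = 0.0452), 0.68 for H2-D1 (adjusted p = 0.0168) and 0.99 for Nlrc5 (adjusted p = 0.0386). Macrophage markers were also higher in experiment 3 (7 of 10 called), and their part in these differences was not tested.

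To compare levels between the 9 genes, CPM was divided by the length of the merged exons in kilobases (GENCODE M21, a later build than the mm9 named for the counts). On this scale B2m led with a mean of 2000 CPM per kilobase over the 12 libraries (1458 to 2860), followed by H2-K1 at 917.5 (570.6 to 1197). H2-D1 came next at 166.9 (111.9 to 231.2), well below H2-K1 in every library. H2-T23 at 101.8 (61.58 to 166.7) and Tapbp at 100.9 (73.22 to 136.1) were not separated. Tap1 at 53.41 (32.82 to 99.10), Tap2 at 28.50 (16.61 to 41.02), Nlrc5 at 22.74 (13.06 to 41.04) and Erap1 at 13.65 (7.50 to 18.9) followed, each overlapping the range of its neighbour in this order. Within each single library Tap1 was still above Tap2 and below Tapbp. The order of Nlrc5 to Tap2 and to Erap1 was not the same in all libraries.

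The 9 genes varied together over the libraries to different degrees. As a description over 12 libraries, which share depth scaling, vector and experiment, Pearson's r of log2 CPM was highest for B2m with H2-T23 (0.93) and was 0.90 for Tap1 with H2-T23 and for B2m with Nlrc5 (0.895). H2-K1 and H2-D1 followed each other (r = 0.79) but not the trimming enzyme, with r of 0.02 and 0.03 to Erap1. Tap1 and Tap2 had r = 0.84. The mean of the centred log2 CPM of all 9 was highest in AdTGFb1 DC 954 (0.60) and lowest in AdCL DC 7 (-0.37), with AdTGFb1 DC 52 (-0.34) among the AdCL libraries of experiment 1.

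Among other genes averaging 5 CPM or more, those with the highest r to that mean were Dnase1l3, a secreted nuclease (0.96), Cybb, the catalytic subunit of the phagocyte NADPH oxidase (0.95), Traf3, a signalling adaptor (0.93), Lgals3bp, a secreted glycoprotein that binds galectins (0.92), and Lnpep, an endosomal aminopeptidase used in cross-presentation (0.92). Insr, Amdhd2, Ly6e, Adam17 and Trpm2 followed (0.90 to 0.91). Single members had in part the same and in part other neighbours. The lysosomal enzymes Hexa (0.97) and Asah1 (0.96), with Sgk3 (0.95), were most like Erap1, while Ttn (0.94), the heavy chain H2-M2 (0.92) and Tpcn1 (0.91) were most like H2-D1 and Rnf31, Cadm1 and Disc1 (0.90 to 0.91) most like H2-K1. Tap1 went with Aktip (0.95), the nucleic acid sensor Zbp1 (0.95) and Traf3 (0.95), and Tapbp with Osbpl3 (0.97), Mnda (0.94) and Tsc22d4 (0.92). For B2m these were Dnase1l3 (0.96), Cybb (0.92) and Kcnj10 (0.90), and for Nlrc5 Gdap10, Dnase1l3 and Trpm2 (each 0.91). Tap2 had Slc35b4 (0.94), Mfap3 (0.93) and Dhx33 (0.92), and H2-T23 had Traf3, Lgals3bp and the complement gene C3 (0.92 to 0.93).

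Among the other class I and class I-like heavy chains, few were called. Of 35 genes listed, 13 had enough counts to test, and over both experiments 2 were called (17.2% of all genes were), both lower, with a median log2 fold change over the 13 of -0.06. H2-M2, a nonclassical heavy chain, was at 243.5 ± 77.8 CPM in AdCL and 157.6 ± 62.4 CPM in AdTGFb1 (SD, n = 6), lower by a log2 fold change of -0.65 ± 0.14 (adjusted p = 0.00343). H2-K2, at 91.2 ± 26.5 and 60.7 ± 33.6 CPM, had a log2 fold change of -0.70 ± 0.19 (adjusted p = 0.0144). H2-T24 (1.04 ± 0.43, adjusted p = 0.107) and Hfe, which takes part in iron uptake control (0.52 ± 0.23, adjusted p = 0.136), did not pass. In experiment 1 alone 4 were lower, as were 14.1% of all genes, and 1 was higher, as were 1397 of 13221. For the difference between the experiments' effects 6.02% of all genes were called. The 2 called for the difference between experiments, H2-Q4 and H2-Q5, were chosen here after their values were seen: H2-Q4 had -0.93 ± 0.19 in experiment 1 and 0.15 ± 0.19 in experiment 3 (adjusted p of the difference = 0.0173), and H2-Q5 -1.26 ± 0.22 and 0.30 ± 0.22 (adjusted p = 0.00337). Of the 50-base words of H2-Q4, 24.25% occur in other genes. This share was not measured for H2-K2 and H2-Q5. Of the 22 untested genes 13 had no count in any library, among them H2-Q6, H2-Q8 and H2-Q9, and none exceeded 17 counts in a library. Other genes hold 31.97% of the 50-base words of H2-Q6, and the share was not measured for H2-Q8 and H2-Q9. How such reads were counted is not given, so the lack of counts does not show that the RNA was absent.

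Chaperones and editing factors of the endoplasmic reticulum gave 1 higher and 1 lower of 12, with a median of 0.03. Of all genes 17.2% were called, 6.78% being higher. Hspa5 (BiP), the main chaperone of the compartment, stood at 5304 ± 2603 CPM in AdCL and 2606 ± 467 CPM in AdTGFb1 (SD, n = 6), with a log2 fold change of -0.88 ± 0.15 (adjusted p = 0.000403). Its AdCL libraries differed between experiments, with 7245 to 8250 CPM in experiment 1 and 2648 to 3296 CPM in experiment 3. Its vector effects of -1.36 ± 0.13 in experiment 1 and -0.41 ± 0.12 in experiment 3 differed (adjusted p = 0.00217). Uggt1, the glucosyltransferase that returns unloaded class I to its chaperones, rose by 0.59 ± 0.13 (adjusted p = 0.0036). Ganab, a glucosidase subunit (0.38 ± 0.13, adjusted p = 0.053), and Tapbpl, a tapasin-related peptide editor (0.61 ± 0.25, adjusted p = 0.101), did not pass.

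The peptide supply list, proteasome subunits and cytosolic or endosomal peptidases, had 3 higher and 1 lower of 16 tested, with a median of 0.14. The share called over all genes was 17.2%, with 6.78% higher. Lap3, an aminopeptidase, rose from 23.4 ± 8.6 to 51.9 ± 11 CPM (1.15 ± 0.23, adjusted p = 0.00212). All 6 AdTGFb1 libraries lay above all 6 AdCL libraries, as for 1.86% of all genes. Lnpep rose by 0.40 ± 0.11 (adjusted p = 0.0132). The immunoproteasome subunit Psmb10 rose by 0.65 ± 0.20 (adjusted p = 0.031), and Psmb6, a constitutive catalytic subunit, fell by 0.44 ± 0.12 (adjusted p = 0.0145). Psmb9, singled out after its values were seen because its promoter window (chr17:34187331-34187530) overlaps that of Tap1, was at 11.9 ± 2.0 and 27.3 ± 3.6 CPM in AdCL and AdTGFb1 of experiment 1, a log2 fold change of 1.2 ± 0.32 (adjusted p = 0.00913). In experiment 3 it was at 32.8 ± 8.3 and 37.1 ± 17.6 CPM (0.18 ± 0.31, adjusted p = 0.845, SD, n = 3). The difference between these effects did not pass (adjusted p = 0.196).

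The regulators moved in both directions, 6 higher and 5 lower of 27 over both experiments, with a median of 0.00 (0.003278). Among all genes 17.2% were called, 6.78% being higher. Irf8, a DC and macrophage transcription factor, rose from 119.2 ± 24.5 to 266.7 ± 58.3 CPM (1.16 ± 0.12, adjusted p = 4.03e-06). The kinase Jak2 fell from 1063 ± 128 to 473.5 ± 73.7 CPM (-1.17 ± 0.10, adjusted p = 1.04e-06). The NF-kB subunits Nfkb1 (-0.996 ± 0.12, adjusted p = 1.56e-05) and Rela (-0.90 ± 0.16, adjusted p = 0.000759) fell as well. For Irf8, Jak2, Nfkb1 and Rela, named for the lowest adjusted p of the list, the 6 libraries of one vector lay beyond all 6 of the other. Over all genes 1.86% separated with AdTGFb1 above and 4.46% with it below. Other called regulators included Irf7, Irf2, Socs1 and the class II transactivator Ciita, all higher, and Jak1 and Ifnar1, both lower.

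The cross-presentation list had 3 higher and 4 lower of 20, with a median of 0.09, where 17.2% of all genes were called, 6.78% being higher. Wdfy4, needed for cross-presentation of cell-associated antigen, fell from 835.7 ± 237.8 to 488.6 ± 62.5 CPM (-0.74 ± 0.13, adjusted p = 0.000553). The kinase Syk fell by 0.59 ± 0.10 (adjusted p = 0.000628). Tlr4, the receptor for lipopolysaccharide, rose by 1.59 ± 0.28 (adjusted p = 0.000628) and Cybb by 0.36 ± 0.10 (adjusted p = 0.0202). Clec9a was also higher and Ncf4 and Rac2 lower. Markers of CD103 DCs, a DC type specialised in cross-presentation, summed to 196.3 to 250.3 CPM in AdCL and 268.6 to 376.4 CPM in AdTGFb1 of experiment 1 and to 229.1 to 273.9 and 452.3 to 575.9 CPM in experiment 3. Of the 7 CD103 DC markers 3 were called higher over both experiments, as were 6.78% of all genes, and none was at 0 throughout a group. Irf8 alone had a mean of 100.6 CPM in AdCL and 221.9 CPM in AdTGFb1 of experiment 1, and of 137.7 and 311.5 CPM in experiment 3. Cadm1 was called lower in experiment 1 (-1.44, adjusted p = 0.0101), and Xcr1 (-0.75) and Itgae (0.09) were not called over both. Irf8 is also among the regulators and Clec9a in the cross-presentation list, and the part of the CD103 DC markers in these changes was not tested.

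**Figure D4:**
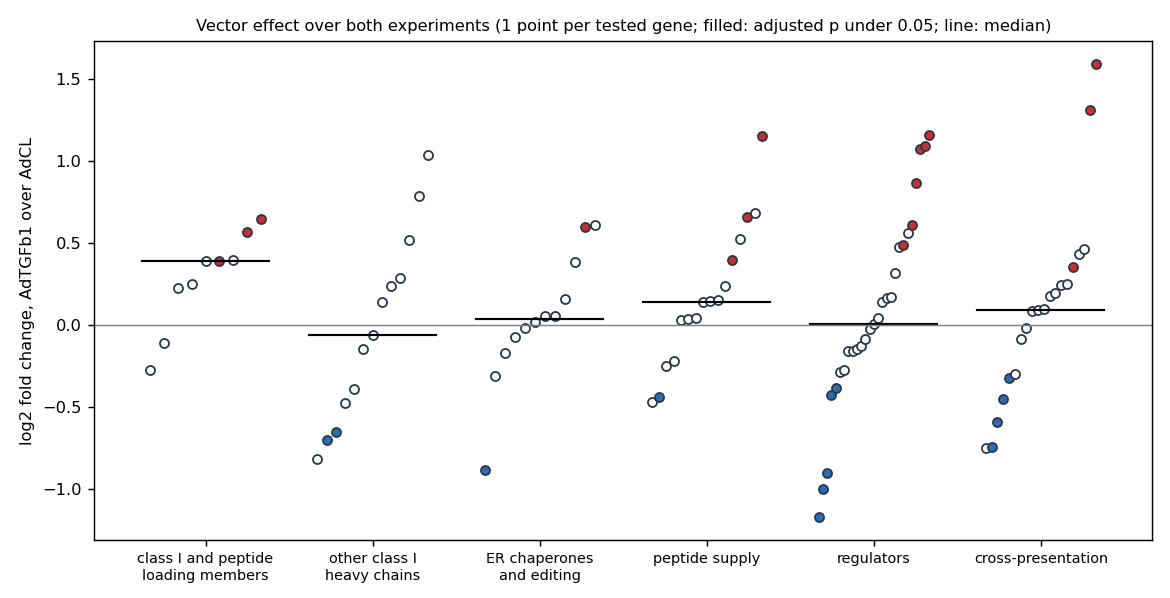
Effect of the vector over both experiments as log2 fold change of AdTGFb1 over AdCL (vertical axis) for each tested gene of the 9 members and of the 5 pathway lists; filled points have an adjusted p under 0.05 (red higher, blue lower) and lines are medians. The median of the 9 members is 0.39, and those of the 5 lists lie between -0.06 and 0.14.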

How the data were processed

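RNA-seq was made from 12 libraries of CD11b DCs. Per the labels' protocols, polyadenylated RNA was selected and a directional kit made libraries with 10 PCR cycles. Tools listed in the submitters' processing notes are STAR 2.5.0c, HTSeq, DESeq2, Trim Galore 0.4.1 with cutadapt 1.9.1, bcl2fastq and FastQC 0.11.4, and the build is mm9. The authors deposited raw read counts per gene symbol, with the annotation, strand setting and treatment of multiply mapped reads not given in the sources used here.

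From these counts, edgeR 4.0.16 (R 4.3.3; TMM, filterByExpr by group) fitted all 13221 genes passing the filter. An additive model of vector and experiment gave the vector's effect over both experiments and experiment 3 against 1, and a model of the 4 groups gave the effects within experiments and their difference. Tests were two-sided quasi-likelihood F tests with Benjamini-Hochberg adjustment over all genes, called at adjusted p under 0.05. The SE is the effect over the square root of F. Log2 CPM used a prior count of 2. Scripts were tested on simulated data. The 9 members and all lists were chosen with earlier results of these data known. Genes named are the 9 members, up to 4 per pathway list (lowest adjusted p, mean of 1 CPM or more), the 10 genes most like the members' mean and 3 per member, with no clone or model names; others are marked, and 1 listed gene is not reported by name here. Alternatives were other normalisations and filters, DESeq2 1.42.0, terms for sex or endothelial markers, no experiment term, leaving out each library and, added later, library totals. Exon lengths and overlaps came from GENCODE M21 (GRCm38), with no coordinates used for counts. Totals of 10099912 to 15594546 counts put 3 counts at 0.181 to 0.31 CPM, which covers counting error only.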

Additional observations from a re-analysis of the deposited data

Results flagged for a closer look

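H2-K1 in AdCL DC 949 stood at 1798 CPM, apart from the other 5 AdCL libraries, which lay between 1492 and 1540 CPM. The gap to its nearest neighbour was more than 0.625 of the range of the 6 libraries, the 95% critical value of Dixon's test. Chance sets about 1 in 20 such groups apart, and 18 groups of 6 were examined. In the same library H2-D1 was at 397.6 CPM and B2m at 1819 CPM, both inside the range of the other AdCL libraries of experiment 3.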

How the results depend on the processing

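Called members over both experiments numbered 3, and 2 to 4 when single libraries were left out, 1 with no term for the experiment (Tap1; 13.1% of all genes called, against 17.2%) and 6 on library totals (18.9%). Tap1 was called in all 21 alternatives there. In experiment 1 the count of 4 became 2 with a term for sex (9.8% of all genes called, against 24.7%) and 0 with a term for endothelial markers. Without single libraries it was 2 to 5. The count was 2 without AdCL DC 8 (20.1% of all genes called), AdCL DC 9 (20.3%), AdTGFb1 DC 14 (19.9%) or AdTGFb1 DC 54 (16.9%). The endothelial term left only 0.0529% of all genes called in experiment 1, where its markers moved with the vector. Sex nearly followed the vector there too, so neither term can be told apart well from it. In experiment 3 the count of 0 became 1 (Tap1) with no low-count filter (6.59% of all genes, against 6.43%) or the endothelial term (5.23%), and 0 to 1 without single libraries. For experiment 3 against 1 the count of 2 became 5 with DESeq2, which also called more of all genes than the 6.43% of edgeR, and 1 to 3 without single libraries (1 without AdTGFb1 DC 954). The cause of these shifts was not tested. No member was called for the difference between experiments under any alternative run.

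Directions turned as follows. H2-K1 over both experiments was 0.022 with a term for sex and 0.060 on library totals. With the endothelial term, experiment 1 gave -0.43 for B2m, -0.15 for Tap1, -0.20 for Tapbp, -1.29 for Nlrc5 and -0.62 for H2-T23, and the difference between experiments 0.96 for Tap1, 0.69 for Tapbp and 1.19 for H2-T23. That difference turned with a term for sex for B2m (-0.10), Tap2 (-0.023) and Nlrc5 (-0.28), and on library totals for B2m (-0.066), Tap2 (-0.12) and Nlrc5 (-0.10). Without single libraries, effects ranged from -0.0040 to 0.39 for Nlrc5 in experiment 1, and in experiment 3 from -0.030 to 0.17 for H2-K1, -0.17 to 0.017 for H2-D1 and -0.014 to 0.46 for Nlrc5. The difference ranged from -0.066 to 0.21 for B2m, -0.38 to 0.047 for Tap1, -0.14 to 0.20 for Tap2, -0.28 to 0.046 for Tapbp and -0.21 to 0.26 for Nlrc5. No paired analysis was possible because the groups share no replicate numbers. With 3 libraries a group, effects of the size seen in experiment 3 had SEs of 0.13 to 0.23.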
